A study of Rattus norvegicus with 24 samples.

Results

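The genes described here were higher in the allogeneic-labelled than in the syngeneic-labelled skin explant of the same rat, and were chosen by that measured difference. The rule took array probes outside the major histocompatibility complex (MHC) and natural killer complex (NKC) gene tables of the study. Detection above background was required in both dyes on 18 or more of the 24 arrays, the mean log2 ratio over 12 rats had to reach 0.5, and at least 11 of 12 rats had to lie above 0. It was met by 91 of 8453 probes, which stand for 87 of 7218 gene names on the array, and 6268 probes could have met it. With the sign turned, the same limits were met by 162 probes of 143 genes. Paw skin of 12 male BN rats aged 15 weeks was cultured for 3 days with lymphocytes from a 7-day mixed lymphocyte reaction (MLR) as a model of the graft versus host reaction, and was rinsed before RNA extraction, so that lymphocytes within the explants were part of the sample. In each rat, 1 explant received syngeneic BN lymphocytes and the other received pre-stimulated allogeneic PVG lymphocytes, each from a reaction with irradiated BN stimulator cells. RNA of both explants of a rat was hybridized together on 2 two-color Agilent arrays with exchanged dyes, so that the sample size was 12 rats and each array carried both groups. Signs follow the dye labels throughout and run opposite to those in the study's own tables, and also to its PCR on part of the same explant pairs, an assay without dyes. Which direction is right is not settled here. If the dye labels were exchanged, every sign would turn, the members would be lower in allogeneic explants, and the sizes and tests would stay as given. The rat of each array and the dye of each explant come from the labels, and the number of arrays limits the precision.

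Nfe2l3, the leading gene, encodes a transcription factor of the cap'n'collar (CNC) family, which binds DNA as a dimer with a small Maf protein. Other CNC factors are known for the control of antioxidant and blood-cell genes. Of the 87 member genes, 35 are in at least 1 of the gene lists used below, among them lists of matrix proteins and of proteins of nerve and synapse, and 52 are in none. In wounded or scarred skin, collagens and periostin are produced together by activated fibroblasts, and Schwann cells and sensory nerve endings run through the same dermis.

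Rat 8 and 1 array of rat 10 stood apart. The log2 ratios of rat 8 had an SD of 0.971 over the 6268 probes, against 0.275 to 0.470 in the other rats, and its correlation with the other rats across these probes was 0.05 to 0.23. The level profile of its syngeneic-labelled explant had a correlation of 0.921 with the median of the other rats, while its allogeneic-labelled explant reached 0.992. Its 2 arrays gave nearly the same ratios (r = 0.936). On the array of rat 10 with the allogeneic-labelled explant in Cy5, the median processed signal was 1059 in Cy3, against 288 to 578 on the other arrays, and the members' mean log2 ratio was 0.10 there and 0.95 on its swapped array. The 2 arrays of rats 2, 3 and 6 also had low correlations (0.108 to 0.170), but similar member means in both orientations (0.32 and 0.40 in rat 3, 0.56 and 0.57 in rat 2, and 0.49 and 0.48 in rat 6). The values that change most without rat 8 are therefore given both ways. Levels, which are log2 processed signals minus the median of the array, use the swapped array alone for rat 10.

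The array read several members through more than 1 probe, and 7 of the 60-base probes are shown by their first 30 bases: that of the leading gene, and those of genes or neighbouring sequences read at separate positions. Coordinates are those of the array files (build rn3), where the 60 bases lie.
Nfe2l3, chr4:79971582-79971641, plus strand: acacaatgagacagaagctatatgaccttt
Ncam1, chr8:52841444-52841503, minus strand: agccaaactaggacactccgttccctgaaa
AW141373, chr8:52851583-52851642, minus strand: tgtggcttgtaacggtgtgccctaccagac
RGD1561090, chr5:94291664-94291723, plus strand: acttcgttacattggtggcgaaagaagtct
RGD1561090, chr5:94285406-94285465, plus strand: gggttgtagatatcttccagacagtcaaaa
Igfbp5, chr9:72147294-72147353, minus strand: ttacgatttaaagcacagtagaagggaaag
Igfbp5, chr9:72150641-72150700, minus strand: accccggaaacgtattcctatttgaagcaa
AW141373 is an expressed sequence tag whose probe lies 10080 bases from that of Ncam1 on the same strand. RGD1561090 is described in the files as similar to the receptor tyrosine phosphatase type D. Its probes gave mean log2 ratios of 0.99 and 0.78, those of Igfbp5 both gave 0.59, and those of Ncam1 and AW141373 gave 1.01 and 0.51. With normexp background correction and loess, the probes of RGD1561090 gave 0.71 and 0.36.

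Over the 91 probes, the mean log2 ratio ran from 0.51 to 1.15 with a median of 0.59, against a median of 0.05 over all 6268 probes. These values are those the members were chosen on and carry no test. A mean of at least 1 was reached by 4 probes and of at least 0.7 by 24, while 51 lay under 0.6. The spread between rats was wide: the SD over 12 rats had a median of 0.463 among the members and 0.228 among all 6268 probes, and without rat 8 the median SD of the members was 0.340. In 49 probes every rat lay above 0, and in the other 42 a single rat lay at or below 0.

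Within single rats, the members' mean log2 ratio was lowest in rat 3 (0.36) and highest in rat 8 (1.26), followed by rat 9 (0.86), rat 7 (0.79) and rat 1 (0.77). On the 3 slides, which held 4 rats each, the median over the members was 0.56 for rats 1 to 4, 0.74 for rats 5 to 8 and 0.53 for rats 9 to 12. All 91 probes had a mean above 0 on each slide and in both dye orientations, which their choice for ratios above 0 made likely. Rats 3 and 8 were the lowest and the highest rat most often, for 22 and 42 probes.

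**Figure D1:**
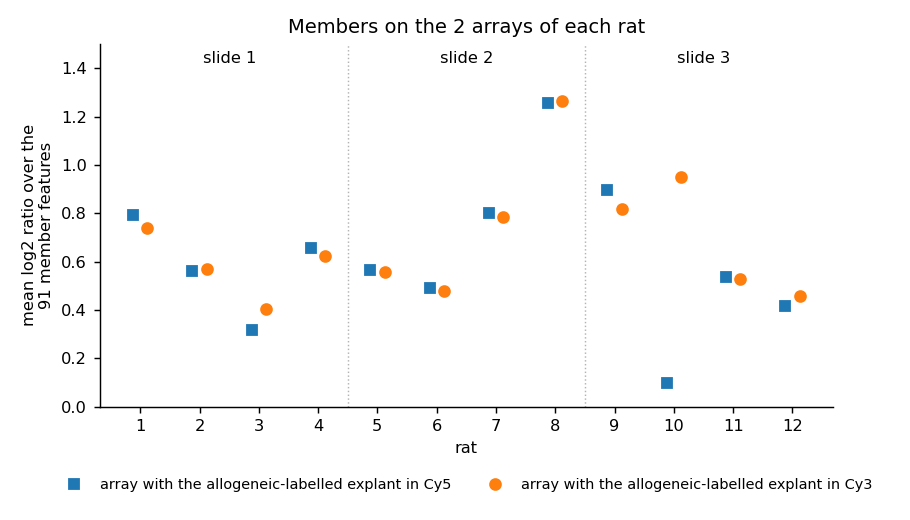
Mean log2 ratio of allogeneic-labelled over syngeneic-labelled signal over the 91 member probes, on the 2 arrays of each of 12 rats (squares, allogeneic-labelled explant in Cy5; circles, in Cy3; dotted lines separate the slides). The 2 arrays of a rat lie close together except in rat 10, where they are at 0.10 and 0.95, and rat 8 is highest.

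A dye bias was measured as the mean of Cy5 over Cy3 on both arrays of a rat. The difference between explants cancels in this mean only where both arrays give it at the same size. Those of rat 10 did not, with member means of 0.10 and 0.95, so that its dye bias holds part of the explant difference. By the limma test over 8453 probes the dye bias differed from 0 for 41 of the 91 member probes (13 brighter in Cy5 and 28 in Cy3), against 52.0% of all probes. Without rat 10, 61 of the 91 were called (31 brighter in Cy5 and 30 in Cy3), against 57.5%. The largest bias among the members was that of Phkg1, the muscle subunit of phosphorylase kinase, with 0.47 ± 0.06 (SE, n = 12 rats, adjusted p = 7.79e-06). Its ratio was 0.98 with the allogeneic-labelled explant in Cy5 and 0.04 in Cy3. The orientations thus differed widely in size, and the mean of 0.51 averages over both. Zbtb38, a methyl-CpG binding repressor, had the opposite bias (-0.45 ± 0.08, adjusted p = 0.000143), with ratios of 0.10 and 1.01.

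Nfe2l3 had the highest mean, 1.15 ± 0.71 (SD, n = 12 rats), which is a 2.22-fold difference. Its log2 ratio was 0.06 in the lowest rat (rat 3), 1.08 in the median and 2.74 in the highest (rat 8), and the mean without rat 8 was 1.00. The level ran from 1.53 to 3.22 (median 2.36) in allogeneic-labelled explants and from -0.65 to 2.25 (median 1.47) in syngeneic-labelled explants, and these ranges overlapped. Among 17 genes of CNC factors, Maf partners and antioxidant targets on the array, Nfe2l3 was the only gene called higher, and 4 were called lower. Over all 7218 genes, limma called 826 higher (11.4%) and 481 lower (6.66%) at an adjusted p under 0.05. With the authors' series table, 610 were higher and 549 lower. Without rat 8, 1350 were higher and 731 lower, of which 810 of the higher genes were shared with the full set of rats. Of the 87 member genes, which were chosen on this contrast, 79 were called higher, and 87 without rat 8.

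A related factor went the other way. Nfe2, the CNC factor of blood-forming cells, fell by 1.70 on the log2 scale (SE 0.12, adjusted p = 1.29e-06) and was below 0 in all 12 rats. Hmox1, heme oxygenase, fell by 0.74 (SE 0.10, adjusted p = 0.000319), was lower in all 12 rats, and was -0.34 in the Cy5 and -1.14 in the Cy3 orientation. Txnrd1, thioredoxin reductase, fell by 0.38 (adjusted p = 0.0156). Mafk, a small Maf partner, fell by 0.27 (SE 0.05, adjusted p = 0.00141). Nfe2l1 (-0.02, adjusted p = 0.853) and Bach1 (-0.00, adjusted p = 0.983) did not pass the test. Nfe2l2, the main antioxidant regulator, was 0.06 with an adjusted p of 0.846, but only rat 8 lay above 0, and without rat 8 the value was -0.14 (adjusted p = 0.0046). Without rat 8, 1 gene of this list was higher and 6 were lower, by the same test. 

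**Figure D2:**
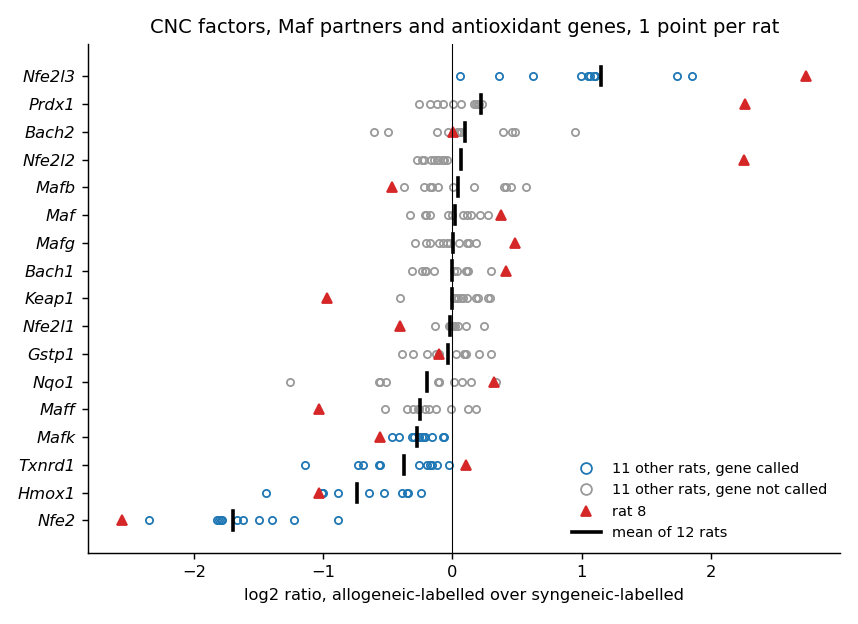
Log2 ratio of allogeneic-labelled over syngeneic-labelled signal for 17 CNC factors, Maf partners and antioxidant genes (circles, rats other than rat 8, blue where limma called the gene; triangles, rat 8; bars, mean of 12 rats). Nfe2l3 lies above 0 in all 12 rats and Nfe2 and Hmox1 below 0 in all 12, while rat 8 alone lies far above 0 for Nfe2l2 and Prdx1.

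Proteins of nerve and synapse were the longest list. Of 47 such genes on the array, 13 were members, and by the limma test 22 were higher and 1 was lower (median log2 ratio 0.18, against 0.04 over all genes). Since members were chosen on this contrast, the calls of non-members are given apart for every list that holds members: over all 7131 genes that were no members, 10.5% were higher and 6.75% lower, with a median of 0.04. Of the 34 non-members in the nerve list, 9 were higher and 1 was lower, with a median of 0.10. Over all 47 genes of the list, members included, 24 were higher and 1 was lower without rat 8. Drd5, a dopamine receptor that raises cyclic AMP, had log2 ratios from 0.35 in rat 6 through a median of 0.97 to 1.94 in rat 12, with a mean of 1.06 ± 0.51. Its level was 0.82 to 1.99 in allogeneic-labelled and -0.12 to 1.03 in syngeneic-labelled explants, with a narrow overlap. Ncam1, the neural cell adhesion molecule, ran from 0.38 in rat 2 to 1.67 in rat 4 with a median of 0.97 and a mean of 1.01 ± 0.42. Rat 8, at 0.59, was among the lower rats for Ncam1 and at 0.68 for Drd5, and leaving it out raised both means, to 1.05 and 1.096.

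The secreted neural protein Nell2 averaged 0.99 ± 0.44 and lay between 0.46 and 1.86. Background correction mattered for it, since normexp with loess gave 0.46. The same setting gave 0.55 for Grin2c and 0.32 for Ntrk2, but 0.75 for Chl1, all described below. Grin2c, a subunit of the NMDA glutamate receptor, averaged 0.88 ± 0.50, with a lowest value of 0.12 and a highest of 1.71. Chl1, a close relative of the adhesion molecule L1, averaged 0.82 ± 0.51 and reached 2.10 in rat 8, and its mean was 0.71 without that rat. For Chn1, a GTPase-activating protein of axon guidance, the range was narrow (0.32 to 1.29, mean 0.75 ± 0.31). Dclk1, a microtubule-associated kinase, was read by a pair of member probes (0.68 ± 0.22 and 0.66 ± 0.52). The growth cone protein Gap43 averaged 0.63 ± 0.38, and its ratio was 0.95 in the Cy5 and 0.32 in the Cy3 orientation. Ntrk2, the receptor of brain-derived neurotrophic factor, averaged 0.59 ± 0.27, and its ligand Bdnf was 0.27 with an adjusted p of 0.0561. Ptprz1 (0.57 ± 0.40), Ptprf (0.56 ± 0.39), the prohormone-cleaving carboxypeptidase Cpe (0.54 ± 0.39) and the adenylate cyclase Adcy2 (0.53 ± 0.30) were closer to the threshold.

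Outside the members, Snap25, a protein of synaptic vesicle fusion, was higher by 2.83 ± 0.26 (SE, adjusted p = 2.79e-05) and lay between 1.32 and 4.55 in the 12 rats. Of 24 arrays, 18 detected it above background in the allogeneic-labelled channel and 1 in the syngeneic-labelled channel, so that it could not meet the rule, and the size of its ratio rests on syngeneic-labelled signals near background. Nrxn3, a presynaptic adhesion protein, was higher by 1.01 ± 0.16 (SE, adjusted p = 0.000715) and missed the rule in the same way, with 17 arrays well above background in the syngeneic-labelled channel. Nrcam was the gene called lower (-0.39 ± 0.05, adjusted p = 0.000315). Most of the other receptors and adhesion genes of the list, such as Drd1 (0.12, adjusted p = 0.403), Ncam2 (0.09, adjusted p = 0.304) and Nlgn1 (0.07, adjusted p = 0.629), did not pass the test. Schwann cell markers gave 4 called higher of 11 (median 0.17), 5 without rat 8 and 2 of the 9 non-members, among them the member Gap43, the myelin protein Pmp22 (0.35 ± 0.07, SE, adjusted p = 0.00436) and the transcription factor Egr2 (0.33 ± 0.10, adjusted p = 0.0448, with 0.50 in the Cy5 and 0.16 in the Cy3 orientation). The defining markers Sox10 (0.02, adjusted p = 0.833) and Mbp (0.04, adjusted p = 0.501) did not pass the test. Summed Schwann cell marker levels were 68.3 to 97.5 in allogeneic-labelled and 53.1 to 81.2 in syngeneic-labelled explants, on the linear scale of the levels, and their part in the result was not tested.

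**Figure D3:**
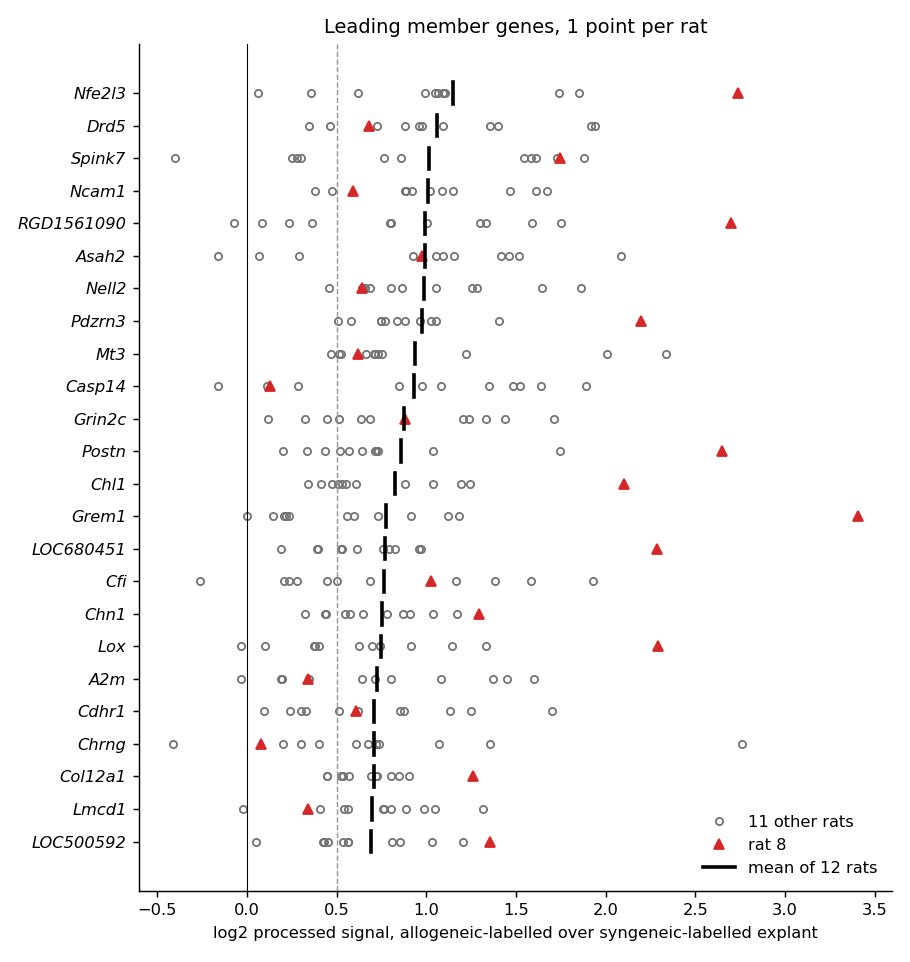
Log2 ratio of 24 of the 25 member genes with the highest means in each of 12 rats, for the leading probe of each gene (circles, rats other than rat 8; triangles, rat 8; bars, mean of 12 rats; the dashed line is the threshold of 0.5). Rat 8 exceeds all other rats for Nfe2l3, Postn, Grem1 and Lox, and lies within their range for Drd5, Ncam1 and Spink7.

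Collagens and the enzymes that modify them gave 9 higher and none lower of 12 on the array, with the same counts without rat 8, and the median log2 ratio was 0.54. Of the 7 non-members, 4 were higher (median 0.39). At an unadjusted p under 0.05 as well, no collagen gene was lower. Members were Col12a1, Col8a1, Col1a2, Col5a3 and Lox. Col12a1, a collagen on the surface of fibrils, had the highest mean relative to its spread of all members, at 0.71 ± 0.23, and every rat lay between 0.45 and 1.26. Its level was 2.95 to 3.89 in allogeneic-labelled and 2.07 to 3.33 in syngeneic-labelled explants. Lox, which cross-links collagen, averaged 0.75 ± 0.63, from -0.03 in rat 2 to 2.29 in rat 8, and 0.61 without rat 8. Col8a1 averaged 0.63 ± 0.29, Col1a2, a chain of the main dermal collagen, 0.54 ± 0.39 and Col5a3 0.53 ± 0.34. The lowest rat for Col5a3 was rat 8, at 0.02. Among the non-members, Col11a1 was higher by 0.63 ± 0.16 (SE, adjusted p = 0.0154, with 0.37 in the Cy5 and 0.89 in the Cy3 orientation) and Cthrc1 by 0.63 ± 0.14 (SE, adjusted p = 0.00833), both in 10 of 12 rats. Col6a2 (0.05, adjusted p = 0.78), Col8a2 (0.06, adjusted p = 0.369) and Col14a1 (0.04, adjusted p = 0.914) did not pass the test, and Col14a1 was detected above background on 17 of 24 arrays in each channel.

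Matricellular and TGF-beta related genes gave 15 higher and 1 lower of 29, with a median of 0.24, and 15 and 2 without rat 8, with a median of 0.13. Of the 27 non-members, 13 were higher and 1 was lower (median 0.12). Postn, periostin, averaged 0.86 ± 0.69, from 0.20 in rat 11 through a median of 0.68 to 2.65 in rat 8, and 0.69 without rat 8. Its level was 2.67 to 3.73 in allogeneic-labelled and 0.02 to 2.88 in syngeneic-labelled explants, where 0.02 was rat 8. Tgfbi, a TGF-beta induced matrix protein, averaged 0.53 ± 0.26 and was above 0 in all rats. The connective tissue growth factor Ccn2 (0.47 ± 0.08, SE, adjusted p = 0.00125) and its relative Ccn4 (0.50 ± 0.09, SE, adjusted p = 0.00249, with 0.20 in the Cy5 and 0.79 in the Cy3 orientation) were higher without being members. Fibronectin, Fn1, was the gene that fell, by 0.33 (SE 0.10, adjusted p = 0.0313). Tgfb2 (0.36, adjusted p = 0.000688) and Tgfb3 (0.43, adjusted p = 0.0061) were higher, whereas Tgfb1 (-0.08, adjusted p = 0.668) did not pass the test.

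Of 15 secreted antagonists of BMP and Wnt signals, 4 were higher and none lower, and 6 were higher without rat 8. Of the 14 non-members, 3 were higher. None was lower at an unadjusted p under 0.05. Grem1, gremlin, averaged 0.78 ± 0.92, with 0.00 in rat 3, a median of 0.58 and 3.41 in rat 8, and 0.54 without rat 8. Follistatin, Fst (0.49 ± 0.11, SE, adjusted p = 0.00775), Wif1 (0.40 ± 0.11, adjusted p = 0.0199) and chordin, Chrd (0.28 ± 0.05, adjusted p = 0.00319), were higher without being members.

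The plasminogen system and protease inhibitors gave 9 higher and 1 lower of 15, with a median of 0.23, and 10 and 1 without rat 8. Of the 12 non-members, 6 were higher and 1 was lower. A2m, the broad protease inhibitor alpha-2-macroglobulin, averaged 0.73 ± 0.55, and Serpine2, which inhibits thrombin and urokinase, 0.51 ± 0.30. Spink7, an inhibitor of serine proteases in epithelia, averaged 1.01 ± 0.77, from -0.40 in rat 4 to 1.88 in rat 9. Plaur, the urokinase receptor, fell by 0.50 (SE 0.07, adjusted p = 0.000316) and was below 0 in all 12 rats, while its ligand Plau was 0.27 (adjusted p = 0.0349) and the tissue activator Plat 0.13 (adjusted p = 0.426).

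Complement proteins encoded outside the MHC gave 4 higher and 1 lower of 14, with a median of 0.09, and 6 and 1 without rat 8. Of the 12 non-members, 2 were higher and 1 was lower. Cfi, which cleaves C3b and C4b, averaged 0.77 ± 0.65, from -0.26 in rat 4 to 1.93 in rat 7. The C1 protease C1s averaged 0.63 ± 0.52, from 0.06 in rat 12 to 1.85 in rat 8, and 0.52 without rat 8. The inhibitor clusterin, Clu, was higher by 0.48 ± 0.08 (SE, adjusted p = 0.0017) and met the rule itself without rat 8 (0.53). C6, a part of the membrane attack complex, fell by 1.24 (SE 0.24, adjusted p = 0.00303) and was lower in all 12 rats. C3 was 0.05, with an adjusted p of 0.841.

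Among 19 genes of chemokine, chemerin, insulin-like growth factor binding and PDGF signals, 8 were higher and none lower, and 10 were higher without rat 8. Of the 15 non-members, 4 were higher. None was lower at an unadjusted p under 0.05. Ccl27, the skin chemokine that attracts memory T cells through Ccr10, averaged 0.67 ± 0.44, from 0.21 to 1.79, and Ccr10 was 0.00 (adjusted p = 0.963). Mme, a peptide-degrading enzyme of the cell surface, averaged 0.65 ± 0.65, with 2.55 in rat 8 and 0.48 without it. Igfbp5 averaged 0.59 ± 0.52 and 0.59 ± 0.53 by its pair of probes, and the second was lowest in rat 8 (-0.49). With normexp and loess these means were 0.54 and 0.21. Rarres2, which encodes chemerin, averaged 0.54 ± 0.31, and its receptor Cmklr1 was 0.01 (adjusted p = 0.943). Cxcl12 was higher by 0.55 ± 0.17 (SE, adjusted p = 0.0357) in 10 of 12 rats.

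Other leading members belong to several tissues. Asah2, the neutral ceramidase, averaged 0.99 ± 0.65 and 0.62 with normexp and loess. Pdzrn3, a ubiquitin ligase with PDZ domains, averaged 0.98 ± 0.45, and its level was 3.68 to 4.49 in allogeneic-labelled and 1.70 to 3.57 in syngeneic-labelled explants. Mt3, a metallothionein, averaged 0.94 ± 0.61 and 0.54 with normexp and loess. Casp14, a caspase of cornifying keratinocytes, averaged 0.93 ± 0.69, from -0.16 in rat 3 to 1.89 in rat 9, and 0.57 with normexp and loess. LOC680451, described as similar to a nuclear receptor binding protein, averaged 0.77 ± 0.53 and 0.63 without rat 8. Cdhr1, a photoreceptor cadherin, averaged 0.71 ± 0.47. Chrng, the fetal subunit of the muscle acetylcholine receptor, averaged 0.71 ± 0.79, and rat 7 at 2.76 lay apart from the median of 0.64. The LIM protein Lmcd1 averaged 0.70 ± 0.36, and LOC500592, described as similar to a tumor necrosis factor receptor superfamily member, 0.69 ± 0.37. Perp, a desmosomal protein, averaged 0.68 ± 0.74 and 0.50 without rat 8, and Adipoq, the adipocyte hormone adiponectin, averaged 0.59 ± 0.36.

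The weight of rat 8 divided the members. It lay above all other rats for 42 probes, within their range for 41 and below all of them for 8. For 18 of the 42, it exceeded the next rat by over 1. In 39 of the 42, the syngeneic-labelled level of rat 8 was below that of all other rats, and in 2 the allogeneic-labelled level was above them. Zfp386, a zinc finger protein, was the widest case: rat 8 was at 4.34 and the others between -0.01 and 0.43. Its syngeneic-labelled level in rat 8 was 0.10, against 4.06 to 4.58 in the other rats, while its allogeneic-labelled level was 4.43, against 4.37 to 4.85. TC526000, a transcript described as a stress-induced protein, was at 4.14 in rat 8 and at most 0.55 in the others. The cullin Cul3 was at 2.93 against at most 0.58, the sugar-nucleotide enzyme Ugp2 at 3.03 against at most 0.76, and the pair of probes of the transcription factor Nfib at 2.94 and 2.62 against at most 0.76 and 0.55. These genes were named after their values were seen. Without rat 8, 63 of the 91 probes kept a mean of at least 0.5 and 28 did not, and 72 probes of 69 genes met the rule with at least 10 of 11 rats above 0, of which 63 were members. The neuropeptide galanin, Gal, showed the reverse, with -0.39 in rat 8 and 0.09 to 1.82 in the others.

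**Figure D4:**
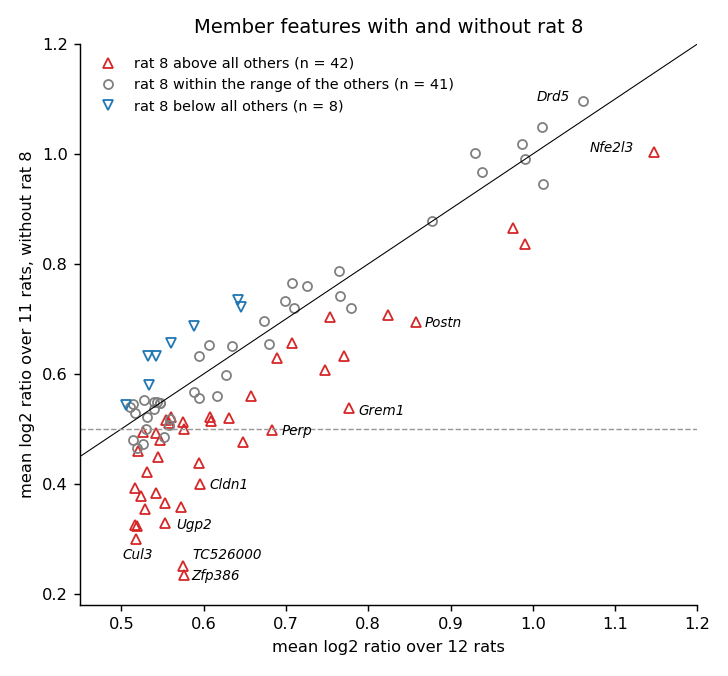
Mean log2 ratio of each of the 91 member probes over 12 rats (horizontal) and over 11 rats without rat 8 (vertical), where the solid line marks equal values and the dashed line 0.5 (symbols show where rat 8 lies among the rats). Zfp386, TC526000 and Cul3 drop to 0.23, 0.25 and 0.30 without rat 8, whereas Drd5 rises to 1.096.

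Near the threshold, the members with the lowest means under the rule were Serpine2 (0.506), Phkg1 (0.510) and Epb41l3 (0.513), and the probes that just missed it were Ccn4 (0.497), Adcy8 (0.497) and Mtss1 (0.495). Of the 87 member genes, 11 had another 15 probes that were not members, and 14 of these 15 had a mean above 0. The 5 custom probes of Ly6g6e, an MHC gene that entered through a further probe outside the gene tables (0.65 ± 0.43), gave 0.64 to 0.67. A second Tnfaip6 probe gave 0.60 but was above 0 in 9 rats. Probes disagreed for Papss2, a sulfate-activating enzyme (0.52 and -0.03), Ptprz1 (0.57 and 0.15), Gas6 (0.55 and 0.18) and LOC500592 (0.69 and 0.13). In rn3 coordinates, 11 member probes lay on chromosome 4, 11 on chromosome 5 and 9 on chromosome 9. These were 3.25%, 3.09% and 4.5% of the 338, 356 and 200 probes there that could have met the rule. On chromosome 11 there were 6 of 158 (3.8%), against 91 of 6268 on all chromosomes and unplaced sequence. Postn and Dclk1 were 1125062 bases apart on chromosome 2.

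Markers of the cells that the explants could hold were set beside these values. In bulk tissue, fewer cells of a type and less RNA per cell cannot be told apart. Of 8 keratinocyte markers on the array, of 28 listed and none of them a keratin, all 8 were well above background in both groups and 4 were higher (median 0.29), 5 without rat 8 and 2 of the 6 non-members, among them the member Perp, the lectin Lgals7 (0.68 ± 0.16, SE, adjusted p = 0.00918) and the hemidesmosome integrin Itgb4 (0.32 ± 0.08, adjusted p = 0.013). Lgals7 was 1.57 in the Cy5 orientation and -0.22 in the Cy3 orientation. Summed keratinocyte levels were 1438 to 2936 in allogeneic-labelled and 1045 to 1845 in syngeneic-labelled explants. All 4 fibroblast markers on the array were detected, and 3 were higher (median 0.43), 4 without rat 8 and 2 of the 3 non-members: Col1a2 and the PDGF receptors Pdgfrb (0.44 ± 0.05, adjusted p = 0.000127) and Pdgfra (0.42 ± 0.13, adjusted p = 0.0365). Pdgfrb was 0.84 in the Cy5 orientation and 0.04 in the Cy3 orientation. The summed fibroblast levels were 100.35 to 184 and 56.9 to 127, respectively. The endothelial list gave 3 higher of 9 (median 0.15), with Cdh5 at 0.37 ± 0.04 (adjusted p = 0.000103, with 0.62 in the Cy5 and 0.12 in the Cy3 orientation), Pecam1 at 0.17 and Flt1 at 0.16, and sums of 97.5 to 157 and 96.9 to 145. Vwf (0.27, adjusted p = 0.174), Tek (0.15, adjusted p = 0.217), Cldn5 (0.02, adjusted p = 0.886), Kdr (0.01, adjusted p = 0.951), Tie1 (-0.09, adjusted p = 0.594) and Esam (-0.11, adjusted p = 0.342) did not pass the test. Of 18 skeletal muscle markers listed, 5 were on the array (median 0.37; sums of 41.4 to 159.9 and 36.5 to 103). Chrna1 (0.41 ± 0.09, adjusted p = 0.00809) was called higher among them, and 2 were higher without rat 8. Myod1 (0.53, adjusted p = 0.0734), Myog (0.37, adjusted p = 0.134), Acta1 (-0.08, adjusted p = 0.874) and Ckm (-0.08, adjusted p = 0.867) did not pass the test.

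Leukocyte markers had the opposite sign to the members by the dye labels, and no member was among them. With the labels exchanged, they would be higher in allogeneic explants. Macrophage markers gave 9 lower and none higher of 13 (median -0.77), with 10 lower without rat 8. Fcgr3a, an Fc receptor, fell by 2.36 (SE 0.11, adjusted p = 4.41e-08), Trem2 by 1.75, the protease Ctss by 1.47 and the scavenger receptor Msr1 by 1.06. Cd163 (0.18, adjusted p = 0.26), Cd14 (0.01, adjusted p = 0.914), Adgre1 (-0.08, adjusted p = 0.489) and Mrc1 (-0.46, adjusted p = 0.0718) did not pass the test over 12 rats. The summed levels of the macrophage list were 117 to 263 in allogeneic-labelled and 175 to 502 in syngeneic-labelled explants. T cell markers gave 6 lower of 11 (median -0.39), among them Cd5 (-1.47), the kinase Lck (-0.85), Cd8a (-0.62) and Cd8b (-0.55), with sums of 8.94 to 15.6 and 11.2 to 25.4. The defining Cd3 chains did not pass the test (Cd3e -0.15, adjusted p = 0.165, Cd3d -0.18, adjusted p = 0.287, and Cd3g -0.46, adjusted p = 0.246). Cd28 was detected above background on 5 allogeneic-labelled and 3 syngeneic-labelled channels of the 24 arrays, and Cd4, among the 6 called lower (-0.27, adjusted p = 0.0101), on 17 in each group. NK cell markers gave 5 lower of 9 (median -0.39), 6 without rat 8: Fcgr3a, the granzymes Gzmc (-1.57), Gzmb (-1.07) and Gzma (-0.73), and Nkg7 (-0.39). The receptors Ncr1 (0.02), Klrk1 (-0.01) and Klrd1 (-0.28), and Prf1 (-0.11), did not pass the test over 12 rats. Of these, only Klrd1 was called without rat 8 (-0.43, adjusted p = 0.0286). The summed levels of the NK list did not overlap, at 8.41 to 14.7 and 17.7 to 58.1. This list shares Fcgr3a with the macrophage list, so that its sum is not one of NK cells alone. B cell markers gave none called of 6, by limma's adjusted p or at an unadjusted p under 0.05 (median -0.05; sums of 0.973 to 4.60 and 0.984 to 2.70), and the melanocyte list none of 2 by either (median 0.02; sums of 1.05 to 1.64 and 0.636 to 1.75). In the adipocyte list, Adipoq was higher and Pparg and Fabp4 were lower, of 4, with the same counts without rat 8 (median -0.17; sums of 18.2 to 58.3 and 20.8 to 45.7). Ccnd1 (0.46 ± 0.06, adjusted p = 0.000342) was higher among 16 proliferation genes (median 0.05; sums of 144 to 199 and 127 to 183). Of 19 immediate early and AP-1 factors, none of them a member, 4 were higher, led by Egr1 (0.49 ± 0.06, adjusted p = 0.000159), and 3 were lower, namely Atf3 (-0.38), Jund (-0.36) and Nr4a1 (-0.33), with a median of -0.12, and without rat 8, 4 were higher and 6 lower. The part of these cell types in the members' values was not tested.

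**Figure D5:**
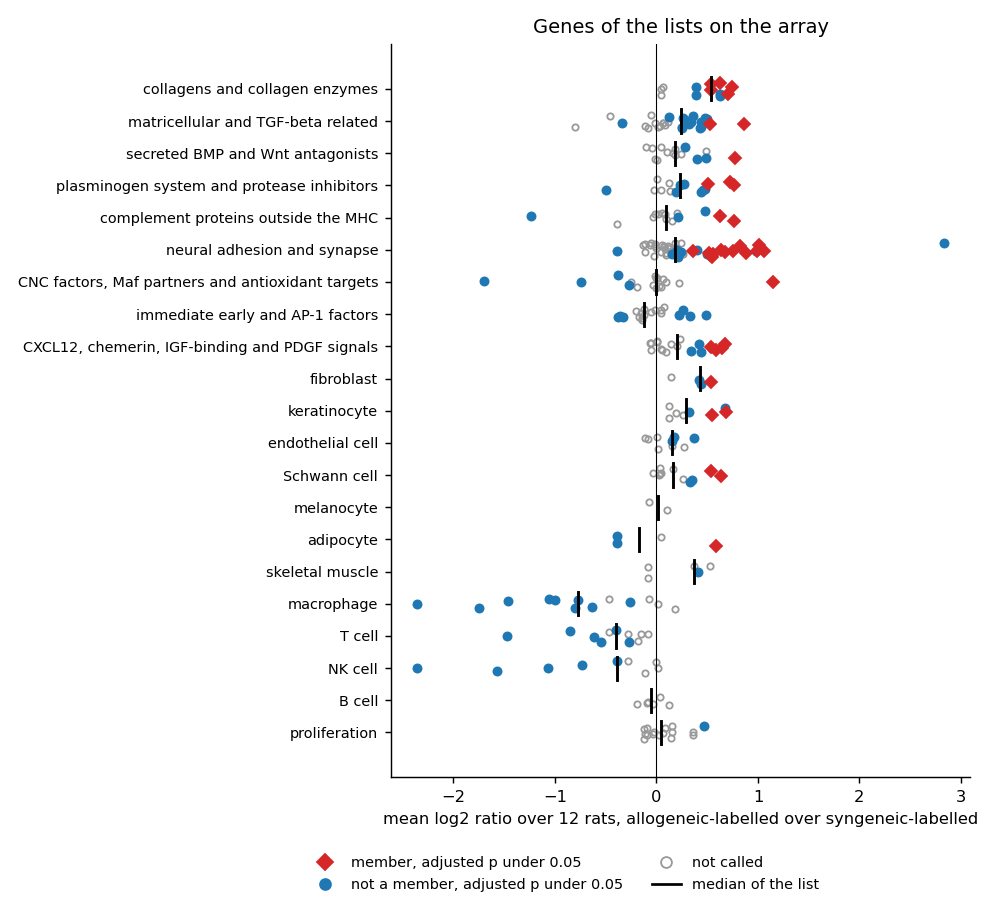
Mean log2 ratio over 12 rats of every gene on the array in 21 lists (diamonds, members; filled circles, other genes called by limma; open circles, genes not called; bars, median of the list; vertical jitter has no meaning). Members lie above 0 in every list that holds them, as the rule requires, and the called macrophage, T cell and NK cell markers all lie below 0.

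Promoter sequence was read from RefSeq (GRCr8), which gave 300 bases, 250 before and 50 after the transcript start, for 59 of the 87 member genes and 3973 of the 5675 genes that could have met the rule. The windows of 3 genes are printed, for the leading gene, periostin and a collagen chain, as examples of members described above. Capitals mark every match, on either strand, to the motifs searched: AP-1 (TGANTCA), the antioxidant response element core (TGACNNNGC), TEAD (GGAATG), AP-2 (GCCNNNGGC), an NFI core (TTGGC), the TATA box (TATAAA) and Sp1 (GGGCGG).
Nfe2l3, chr4:81837154-81837453, plus strand: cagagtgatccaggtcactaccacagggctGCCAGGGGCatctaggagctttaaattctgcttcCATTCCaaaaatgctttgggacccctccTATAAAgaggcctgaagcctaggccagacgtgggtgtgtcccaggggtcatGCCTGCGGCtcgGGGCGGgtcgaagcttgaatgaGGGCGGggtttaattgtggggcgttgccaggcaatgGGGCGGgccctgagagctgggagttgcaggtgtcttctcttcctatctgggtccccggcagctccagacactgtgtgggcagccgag
Postn, chr2:140677811-140678110, plus strand: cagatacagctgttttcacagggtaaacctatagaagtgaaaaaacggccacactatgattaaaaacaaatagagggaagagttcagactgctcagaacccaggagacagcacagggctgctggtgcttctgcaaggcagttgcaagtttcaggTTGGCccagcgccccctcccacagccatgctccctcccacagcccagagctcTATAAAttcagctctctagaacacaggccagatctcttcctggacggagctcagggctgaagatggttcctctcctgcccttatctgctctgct
Col1a2, chr4:33518307-33518606, plus strand: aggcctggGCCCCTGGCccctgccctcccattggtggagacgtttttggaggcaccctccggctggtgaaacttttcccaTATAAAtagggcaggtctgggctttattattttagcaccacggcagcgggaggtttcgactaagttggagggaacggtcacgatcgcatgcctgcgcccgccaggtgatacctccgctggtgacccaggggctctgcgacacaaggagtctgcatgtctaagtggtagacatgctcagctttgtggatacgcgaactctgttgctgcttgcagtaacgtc
The Nfe2l3 window held matches to TEAD, AP-2, TATA box and Sp1, that of Postn to the NFI core and the TATA box, and that of Col1a2 to AP-2 and the TATA box. AP-1 was matched in 6 of the 59 member promoters (10.2%) and 6.37% of the 3973, and the antioxidant response element core in 6 (10.2%) and 13.4%. TEAD was matched in 8 (13.6%) and 11.6%, AP-2 in 15 (25.4%) and 21.8%, the NFI core in 34 (57.6%) and 46.2%, the TATA box in 8 (13.6%) and 13.3%, and Sp1 in 33 (55.9%) and 51.5%. These shares describe letters in a window and were not tested.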

How the data were processed

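Arrays were assigned to rats and dye orientations from the labels. Per the file headers, the deposited intensities of each spot came from Feature Extraction 9.5.1.1, and its processed signals, after background subtraction and dye normalization, were the main measure. A second deposited table held log2 ratios of the same arrays, whose centring was not stated. Its direction was given only by sample titles that read stimulated against non-stimulated. All 24 of its columns correlated positively with the allogeneic over syngeneic ratio by label (r at least 0.707), and column medians lay between -0.027 and 0.022. The table thus follows the dye labels, but this match does not settle whether the labels are right, nor any centring. The labels and methods name different amplification kits and software versions.

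Membership used all spots. Other values left out outlier-flagged and control spots, and no member then fell under 0.5. Averages were taken over the spots of a probe, then its gene's probes, then both arrays of a rat. Of 8453 probes, 4728 were named by accession, 2344 by symbol or synonym in GRCr8, and 1381 kept the file's name. limma 3.58.1 in R 4.3.3 (intercept, eBayes with trend, Benjamini-Hochberg) tested 7218 genes over 12 rats and the dye bias over 8453 probes, after tests on simulated data. The rat numbers pair both orientations of an animal. Alternatives were normexp (offset 50) with loess, the series table, median centring, filters, orientations, slides, blocks and leaving out each rat. Arrays are technical repeats, so n counts rats. Members, gene lists and tests were chosen with earlier results of these data known. Named genes were Nfe2l3, the 25 leading genes, members in a list, probes beside the threshold and up to 4 called genes a list. Other list genes (such as Mafk, Fn1, Nrcam, the Tgfb genes and those given without passing the test), the genes read mainly from rat 8, and the members with the largest dye bias were chosen for naming after their values were seen. Some genes that this rule names are not reported here.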

Additional observations from a re-analysis of the deposited data

How the results depend on the processing

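The rule gave 87 member genes, 50 with normexp and loess, 143 from the Cy5 orientation alone and 250 from the Cy3 orientation alone, and 69 (without rat 8) to 120 (without rat 3) when 1 rat was left out. The median over the members stayed between 0.55 and 0.61 when 1 rat was left out. Genes called higher numbered 595 to 1350 and genes called lower 403 to 731 when 1 rat was left out, the highest in both cases without rat 8. The Cy5 orientation alone called 1350 higher and 886 lower. Without rat 8 and with rat 10 read from its swapped array alone, a setting chosen after seeing the data, 1411 were higher and 724 lower. With the 24 arrays and the rat as a random replicate block (correlation between the arrays of a rat 0.321), 895 were higher and 522 lower. For the dye bias, 2216 probes were brighter in Cy5 and 2181 in Cy3 in the paired test. With no replicate block they were 1164 and 1141, and leaving out 1 rat gave 2016 to 2542 and 2045 to 2319. Lgals7 turned to -0.22 in the Cy3 orientation. The cause of these changes was not tested. No member probe turned its sign under the alternatives run, but the choice of members for ratios above 0 on these arrays made this likely. For these alternatives, values of member probes were held to their spread between rats, counts of calls to a fixed fold change, and other named genes to their call. By these criteria 3973 values stayed the same, 71 moved, 52 lost their call and 1 turned. The main counts (members, calls and dye bias over all probes) and the members' median were tallied apart. Of these values, 107 stayed the same and 11 moved. Leaving out 1 rat cannot move a member probe's mean by its SD over rats, so that this outcome was fixed beforehand for member probes. Member probes moved only in the Cy5 orientation alone (3), the Cy3 orientation alone (3) and with normexp and loess (2).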
